A study of Mus musculus with 5 samples.

Results

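Claudins, their partners in tight junctions and the connexins of gap junctions were measured in GFP-positive cells sorted from mouse lungs 2 days after birth. The set comprised every gene with a claudin, connexin, Tjp or Marveld symbol on the array, together with Ocln, F11r, Jam2, Jam3, Cgn, Cxadr and Esam. It held 50 genes on 88 probe sets (groups of short probes to 1 transcript), of 18194 genes on the array, and of a gene's probe sets the one with the highest mean was used. All 50 genes were chosen by name and not by signal. There were 24 claudins, 14 connexins and 12 other genes.

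The samples formed 1 group of 5 biological replicates, each with 1 one-colour Affymetrix array and no comparison group. They came from SPC-GFP pups born to SPC-GFP and out-bred ICR parents, whose lungs were dissociated with trypsin and EDTA and sorted for GFP. SPC commonly stands for surfactant protein C, which alveolar type 2 cells make. The labels do not say which promoter drove GFP, whether pups were pooled, or how pure the sort was, and they name the cells both alveolar type 2 (titles) and ciliated (design text). Because no treatment, age or genotype differed, the data answer which junction genes gave signal above background and how far that signal differed between the replicates. Every p-value rests on these 5 samples alone, with variances drawn in part from other genes, and their number limits the precision.

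Alveolar type 2 markers were above background in 15 of 15 cases, among them Sftpc at 14.67 ± 0.053 and Abca3 at 14.39 ± 0.072 (mean ± SD of log2 signal, n = 5). Alveolar type 1 (15 of 15), pan-epithelial (12 of 12), ciliated (17 of 18), club (11 of 12), endothelial (16 of 16), mesenchymal (14 of 15) and immune markers (14 of 14) were called as well. Markers were called in part for basal (4 of 6), neuroendocrine (5 of 7), cardiac (8 of 10) and mesothelial cells (3 of 7). Of all genes tested 74.8% were called, and the shares of these last lists were near or below it. Against the higher, organ-restricted background defined below, 1 of 6, 1 of 7, 6 of 10 and 3 of 7 were called, with 60.6% of all genes. The lists named before them had 83.3% to 100%. RNA of several cell types' markers was thus measured, and in bulk RNA a smaller number of expressing cells and less RNA per cell cannot be told apart. The ciliated list differed most between replicates, with a median deviation of 1.05 log2 units in replicate 1 and −0.37 to −0.52 in replicates 3 to 5. Across genes, the 10 pairs of arrays had Pearson's r of 0.988 to 0.994.

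Tight junctions seal the space between neighbouring epithelial cells. Claudins, which span the membrane, set which ions and solutes pass. Occludin and its relatives, immunoglobulin-type adhesion molecules and cytoplasmic plaque proteins complete the seal. Gap junctions are channels of connexin subunits that let ions and small messengers pass between cells; in the alveolus they carry calcium signals between type 1 and type 2 cells. A tight alveolar epithelium keeps fluid out of the newborn air space.

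The background of an array was set from 76 genes of smell, taste and pheromone receptors, as their 95th percentile, and lay between 5.45 and 5.71. A gene counted as above it if limma's one-sided moderated test over all genes gave a Benjamini-Hochberg adjusted p below 0.05. Of the 50 junction genes 33 (66%) were called, against 74.8% of the 18118 genes tested. Against the 95th percentile of 43 genes restricted to other organs, which lay between 7.20 and 7.68, 29 (58%) were called, against 60.6% of all genes. The share at the organ-restricted level was near that of all genes. The 12 genes that are neither claudins nor connexins were called in 12 cases, the 24 claudins in 14 and the 14 connexins in 7. Signals of different probe sets depend on their probes, so no gene's level was ranked against another's.

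**Figure D1:**
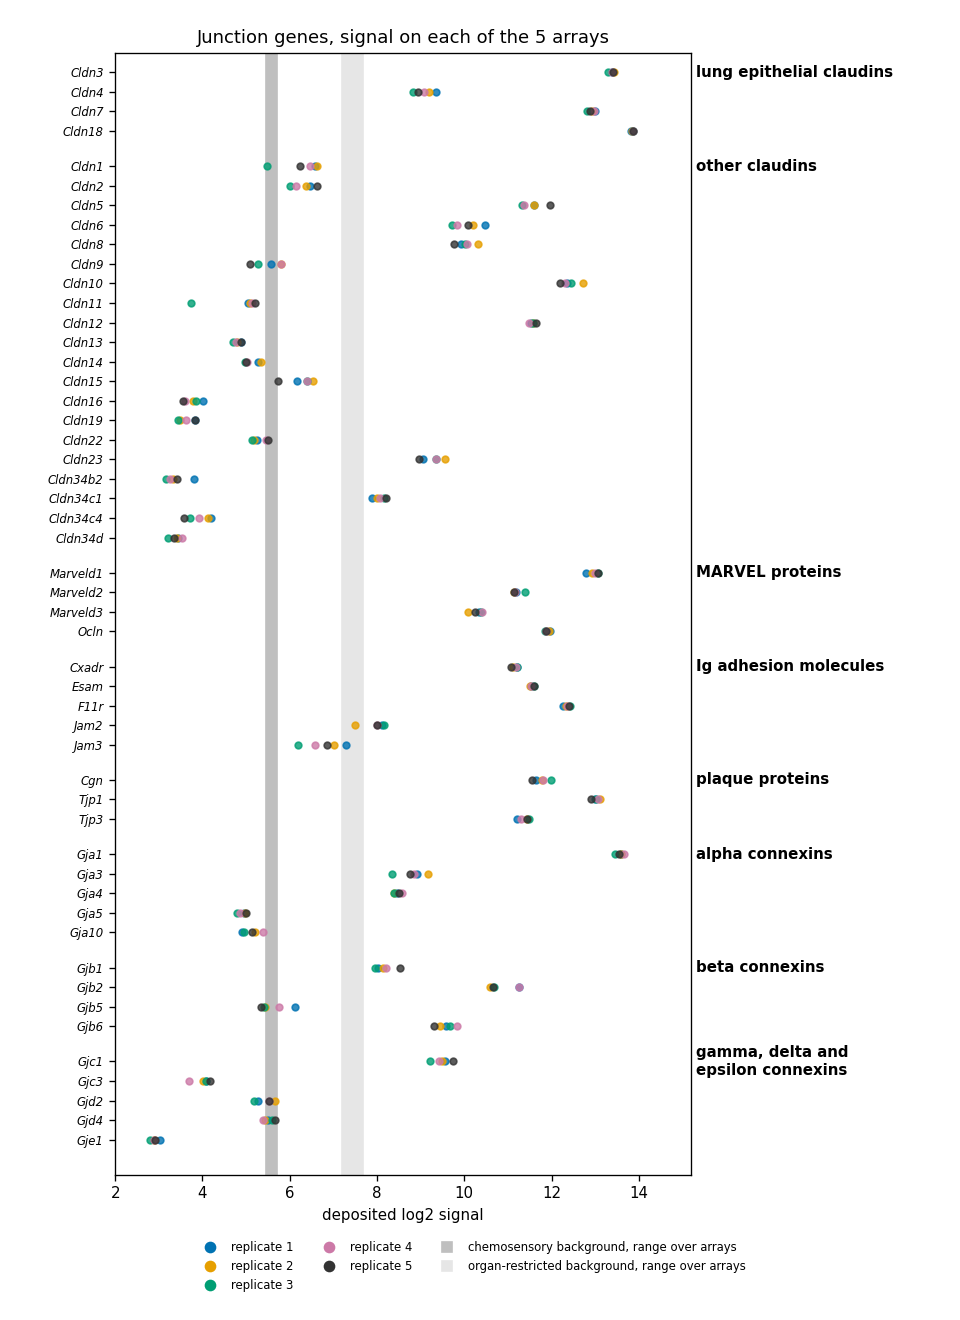
Deposited log2 signal (x axis) of the 50 junction genes (rows, grouped by role and in order of name) on each of the 5 arrays, with the ranges over arrays of both background levels as grey bands. MARVEL, immunoglobulin-type and plaque genes sit to the right of the darker band on every array, whereas 10 of the 20 other claudins and 7 of the 14 connexins were not called above it.

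The 4 claudins known from lung epithelium were called on both backgrounds. Cldn18, whose loss makes the mouse alveolar barrier leaky, had 13.83, 13.85, 13.88, 13.87 and 13.86 in replicates 1 to 5. Cldn3, a claudin enriched in alveolar type 2 cells, had 13.38, 13.44, 13.30, 13.38 and 13.40. Cldn7, which also has roles at the basolateral membrane, had 12.99, 12.93, 12.80, 12.97 and 12.87. Cldn4, which is induced on lung injury and is linked to fluid clearance, had 9.35, 9.19, 8.83, 9.08 and 8.95. Cldn3, Cldn4 and Cldn7 were all lowest in replicate 3, while the arrays lay within 0.05 log2 units for Cldn18. In limma's test Cldn18 lay 8.33, Cldn3 7.85, Cldn7 7.38 and Cldn4 3.55 log2 units above the chemosensory background, with adjusted p from 6.45e-21 to 7.45e-14.

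The spread of Cldn18 was narrow by the standard of the whole array. Its SD was 0.0188 over the 5 arrays, a 1.03-fold range, and 0.184% of the genes above background had a smaller one. The same share was 4.98% for Cldn3 (SD 0.0522), 13.7% for Cldn7 (SD 0.0751) and 66.0% for Cldn4 (SD 0.205). Each array's highest value was 15.13 to 15.24, so the signals of Cldn18 and Cldn3 lay near the top of the scale, where differences can be compressed; saturation could not be checked. The other probe set of Cldn18 averaged 12.01 ± 0.095 and had its highest value in replicate 5 instead. All 4 probe sets of Cldn3, which averaged 12.12 to 13.38, were highest in replicate 2 and lowest in replicate 3. By their suffixes, 2 of the 4, including the one used, can hybridise to other transcripts, and the other 2 match several transcripts of 1 gene.

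The promoters of these 4 genes are shown from RefSeq, because Cldn3 and Cldn4 lie side by side in the genome and Cldn18 and Cldn7 have 2 annotated starts each. Each line gives the 250 bases before a start, 5′ to 3′ on the gene's strand (GRCm38.p6). Capitals mark matches, on either strand, to CAAGTG (NK2 homeodomain family), AACCNGTT (grainyhead-like), GGGCGG (GC box), TATAAA or CAGGTG (the E-box of snail factors).

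Cldn3, chr5:134985964-134986213, plus strand: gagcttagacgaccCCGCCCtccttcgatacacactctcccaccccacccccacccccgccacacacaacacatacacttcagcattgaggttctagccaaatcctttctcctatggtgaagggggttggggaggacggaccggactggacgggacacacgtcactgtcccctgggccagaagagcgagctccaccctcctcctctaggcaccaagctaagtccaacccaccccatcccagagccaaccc
Cldn4, chr5:134946935-134947184, minus strand: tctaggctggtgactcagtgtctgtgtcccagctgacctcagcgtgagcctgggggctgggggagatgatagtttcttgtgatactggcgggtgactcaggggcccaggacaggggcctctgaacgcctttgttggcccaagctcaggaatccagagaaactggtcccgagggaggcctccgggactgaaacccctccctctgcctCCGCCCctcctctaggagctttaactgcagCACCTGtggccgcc
Cldn7 first start, chr11:69964529-69964778, plus strand: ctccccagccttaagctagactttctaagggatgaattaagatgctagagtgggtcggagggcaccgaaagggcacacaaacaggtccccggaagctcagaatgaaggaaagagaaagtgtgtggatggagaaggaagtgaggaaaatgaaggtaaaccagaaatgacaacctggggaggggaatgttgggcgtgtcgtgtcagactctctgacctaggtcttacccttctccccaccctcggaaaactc
Cldn7 second start, chr11:69965171-69965420, plus strand: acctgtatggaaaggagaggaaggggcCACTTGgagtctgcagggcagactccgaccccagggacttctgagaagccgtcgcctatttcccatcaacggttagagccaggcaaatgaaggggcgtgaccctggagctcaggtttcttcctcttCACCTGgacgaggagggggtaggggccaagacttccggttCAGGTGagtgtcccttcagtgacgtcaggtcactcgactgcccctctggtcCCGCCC
Cldn18 first start, chr9:99717268-99717517, minus strand: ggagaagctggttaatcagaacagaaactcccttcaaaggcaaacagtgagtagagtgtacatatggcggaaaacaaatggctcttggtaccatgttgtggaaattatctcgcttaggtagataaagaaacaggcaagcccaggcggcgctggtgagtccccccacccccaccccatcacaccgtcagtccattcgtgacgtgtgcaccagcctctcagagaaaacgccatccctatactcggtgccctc
Cldn18 second start, chr9:99710064-99710313, minus strand: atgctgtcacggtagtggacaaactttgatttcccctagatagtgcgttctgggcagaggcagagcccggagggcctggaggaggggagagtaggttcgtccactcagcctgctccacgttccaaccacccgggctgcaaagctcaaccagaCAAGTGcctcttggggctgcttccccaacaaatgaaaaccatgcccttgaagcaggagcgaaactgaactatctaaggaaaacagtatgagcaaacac

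The starts of Cldn18 are 7204 bases apart and those of Cldn7 642 bases, and the table does not say which start the probe sets measure. A match to CAAGTG began 98 bases before the second start of Cldn18 and 223 bases before the second start of Cldn7. The GC box occurred in Cldn3, Cldn4 and Cldn7, and CAGGTG in Cldn4 and Cldn7. No AACCNGTT or TATAAA stands in these 6 windows. Of 52 windows of 37 junction genes, 25 (48.1%) held the GC box, against 32.7% of 32851 RefSeq windows of the same length. The shares were 15.4% and 11.6% for CAAGTG, 5.77% and 1.79% for AACCNGTT (3 windows of the set), 15.4% and 12.4% for TATAAA, and 23.1% and 17.2% for CAGGTG. These are letter matches and do not show binding. Among factors that can bind such letters, Nkx2-1 gave 9.22 ± 0.029, Grhl2 12.32 ± 0.043 and Klf5 11.98 ± 0.088 (n = 5), all above background, and Snai2, which represses junction genes, gave 10.02, 10.88, 9.84, 9.98 and 10.68 in replicates 1 to 5. Snai2 was highest in replicates 2 and 5 and lowest in replicate 3, as was the median of the mesenchymal markers (0.30, 0.39 and −0.51), whose part was not tested.

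The other 20 claudins divided evenly, with 10 above the chemosensory background. Of these, 7 also passed the organ-restricted one: Cldn5, Cldn6, Cldn8, Cldn10, Cldn12, Cldn23 and Cldn34c1. Cldn10, a claudin used as a marker of club cells, had 12.35, 12.72, 12.44, 12.32 and 12.19 in replicates 1 to 5. Cldn8, known from the distal nephron, had 9.91, 10.32, 10.01, 10.07 and 9.76. Cldn23 had 9.05, 9.55, 9.36, 9.35 and 8.97. These 3 genes were each highest in replicate 2 and lowest in replicate 5. Cldn15, a cation pore of the intestine, had the same extremes, with 6.17, 6.53, 6.39, 6.40 and 5.74. The club marker list was also highest in replicate 2 (median deviation 0.33, against −0.02 to −0.17 in the other replicates), but lowest in replicate 1. The alveolar type 1 list was highest in replicate 2 as well (0.12) and lowest in replicate 1. The mesothelial list, by the median of its 3 called genes, was highest in replicate 2 (0.18) and lowest in replicate 5 (−0.09). Its members differed, with Msln and Krt19 highest in replicate 2 and Upk3b in replicate 4. The uncalled Wt1, Lrrn4, Bnc1 and Muc16 were highest in replicate 4 as well. The part of these lists in these values was not tested.

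Cldn5, the main claudin of endothelium and also found in alveolar epithelium, had 11.59, 11.59, 11.32, 11.37 and 11.96. It was highest in replicate 5 and lowest in replicate 3. The median of the 16 endothelial markers was also highest in replicate 5 (0.15). That list was lowest in replicate 2 (−0.16), where Cldn5 was near its mean, with −0.15 in replicate 3. The cardiac, mesenchymal and immune lists were highest in replicate 5 too (0.54, 0.39 and 0.28). Like Cldn5, these 3 lists were lowest in replicate 3 (−0.89, −0.51 and −0.56). The part of all these lists was not tested. Cldn6, a claudin of embryonic epithelia that is largely lost in adult tissue, had 10.47, 10.19, 9.73, 9.84 and 10.08. It lay 4.53 log2 units above the chemosensory and 2.67 above the organ-restricted background. Cldn6 was highest in replicate 1 and lowest in replicate 3. The ciliated list (1.05 and −0.52) and the neuroendocrine list (0.36 and −0.54) had the same extremes, and their part was not tested. Cldn12 was steady, at 11.56 ± 0.058, and Cldn34c1, of which no role is given here, averaged 8.06 ± 0.12 (n = 5).

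A further 3 claudins, Cldn1, Cldn2 and Cldn15, were called above the chemosensory background and not above the organ-restricted one. Cldn1, needed for the water barrier of skin, had 6.57, 6.62, 5.48, 6.48 and 6.24. Its call rested on 1 of 4 probe sets; the others averaged 5.02, 3.09 and 2.89, below the mean background of 5.53. Cldn2, the cation and water pore of leaky epithelia, had 6.47, 6.38, 6.00, 6.14 and 6.61, and its second probe set averaged 5.28. All 3 lay 0.71 to 0.79 log2 units above the chemosensory background (limma adjusted p from 5.13e-05 to 0.000386) and 1.08 to 1.15 below the other.

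The remaining 10 claudins were not called. They include Cldn16 and Cldn19, partners in magnesium reabsorption in the kidney (3.76 ± 0.19 and 3.64 ± 0.18), Cldn14 of the inner ear (5.12 ± 0.17) and Cldn11 of myelin and Sertoli cells (4.84 ± 0.63). Cldn9 lay at background on average, with 5.50 ± 0.32 (limma adjusted p = 0.746). Cldn13, Cldn22, Cldn34b2, Cldn34c4 and Cldn34d averaged 3.39 to 5.31. These means do not show that the transcripts are absent, since a probe set can fail to report its gene.

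All 4 genes of the MARVEL type were called on both backgrounds. Occludin, Ocln, had 11.95, 11.94, 11.85, 11.87 and 11.88 in replicates 1 to 5. Marveld2, which encodes tricellulin, the protein of the corners where 3 cells meet, had 11.19, 11.14, 11.38, 11.16 and 11.15. On this probe set Ocln differed by 0.10 log2 units over all arrays, and Marveld2 stood higher in replicate 3 only. The other set of Ocln differed more, with 11.74, 11.91, 11.98, 11.58 and 11.76, and was highest in replicate 3, where the set used was lowest. Marveld3, a tight junction protein related to both, averaged 10.29 ± 0.13, and Marveld1 averaged 12.97 ± 0.12 (n = 5). The value of Marveld1 depends on the probe set, since its other 3 averaged 11.001, 8.545 and 2.982.

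The plaque proteins, which tie the membrane proteins to actin, were called in 3 of 3 cases. Tjp1, the scaffold zonula occludens protein, had 12.99, 13.11, 13.02, 13.06 and 12.90. Its relative Tjp3, found in epithelia, had 11.22, 11.43, 11.49, 11.29 and 11.44. Cingulin, Cgn, had 11.63, 11.79, 12.00, 11.81 and 11.56. The arrays lay within 0.21 log2 units for Tjp1, 0.27 for Tjp3 and 0.44 for Cgn. Both probe sets of Cgn were highest in replicate 3 and lowest in replicate 5.

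All 5 immunoglobulin-type adhesion genes were called above the chemosensory background. F11r, the junctional adhesion molecule A of epithelium, had 12.27, 12.33, 12.41, 12.35 and 12.39, and Cxadr, the coxsackievirus and adenovirus receptor, had 11.20, 11.13, 11.20, 11.18 and 11.08. Esam, an adhesion molecule of endothelial cells and platelets, had 11.53, 11.50, 11.60, 11.54 and 11.59. On the probe sets used, these 3 genes differed by 0.10 to 0.14 log2 units over the arrays. Another set of Cxadr differed more, with 10.95, 10.92, 10.40, 10.97 and 10.80, and was lowest in replicate 3, where the set used was highest. The endothelial marker list spanned 0.31 over the same arrays.

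Jam2 and Jam3, which join endothelial and other cells, differed more. Jam2 had 8.104, 7.502, 8.171, 8.001 and 8.003, with replicate 2 below the rest. Jam3 had 7.30, 7.02, 6.19, 6.57 and 6.86, a 2.16-fold range, and was not called above the organ-restricted background (0.61 below it). The second probe set of Jam3 ran the other way, with 5.67, 6.09, 6.19, 6.10 and 6.54, lowest where the first was highest. Of the 5 probe sets of Jam2, 3 averaged above the mean background and only the one used was lowest in replicate 2.

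Connexins were called in 7 of 14 cases, the same 7 genes on both backgrounds. Gja1, the most widely expressed connexin and one of alveolar epithelium, had 13.60, 13.60, 13.46, 13.65 and 13.55 in replicates 1 to 5. All 6 of its probe sets averaged above the mean background, from 7.99 to 13.57. Gja3, known from the lens, had 8.90, 9.16, 8.34, 8.85 and 8.76, lowest in replicate 3; its second probe set averaged 5.98. Gja4, a connexin of arterial endothelium, averaged 8.46 ± 0.080, whereas Gja5, its partner there, averaged 4.92 ± 0.086 and was not called. Gja10, of retinal horizontal cells, was not called either, at 5.12 ± 0.19.

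Among the beta connexins Gjb2 stood out by its spread. It had 11.25, 10.58, 10.69, 11.25 and 10.65, so that replicates 1 and 4 lay above the other 3 with a gap of 0.56 log2 units. The alveolar type 1 marker list was lowest in the same replicates, with median deviations of −0.18 and −0.04 in replicates 1 and 4. In replicates 2, 3 and 5 it had 0.12, 0.10 and 0.03. In replicate 4 the type 1 markers Pdpn, Vegfa, Gprc5a and Lmo7 deviated upwards (0.16, 0.15, 0.06 and 0.01) and the other type 1 markers downwards. The alveolar type 2 list was highest in replicate 4 (0.09). It had 0.03, −0.03, 0.01 and −0.09 in replicates 1, 2, 3 and 5, so replicates 1 and 3 hardly differed. The part of these lists was not tested. Gjb6, which adjoins Gjb2 in the genome and pairs with it in the inner ear, had 9.58, 9.44, 9.67, 9.83 and 9.31. It shared the high value in replicate 4 with Gjb2, but not that in replicate 1. Gjb1, the connexin of hepatocytes, also found in alveolar type 2 cells, averaged 8.17 ± 0.22 and was highest in replicate 5; its second probe set averaged 5.77. Gjb5, an epidermal connexin, averaged 5.62 ± 0.32 and was not called (limma adjusted p = 0.362). Gjc1, the connexin of smooth muscle and the cardiac conduction system, averaged 9.48 ± 0.19. The neuronal Gjd2, with Gjc3, Gjd4 and Gje1, averaged 2.91 to 5.52 and were not called.

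For each gene, an F test set the variance between the 5 replicates against the variance that limma fits for genes of that signal. After adjustment over the 13551 genes above background, 0 of 33 junction genes passed the F test, as did 0 of all genes (0%). The test had little power: Scgb3a1, a club marker with a 23.9-fold range over the arrays, had an F test adjusted p of 0.857. The 0 therefore does not show that junction genes were alike between replicates. At an unadjusted p under 0.05, 1 of 33 (3.03%) passed, against 5.6% of all genes. That gene was Gjb2, which had an unadjusted p of 0.0489 and a limma-based adjusted p of 0.884. Cldn5 followed with an unadjusted p of 0.0750. The median SD was 0.17 in the 33 genes and 0.154 in all genes above background. The range over the arrays was under 0.2 log2 units in 10 of the 33 genes, from 0.2 to 0.5 in 7, from 0.5 to 1 in 14, and over 1 in 2, Cldn1 and Jam3.

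**Figure D2:**
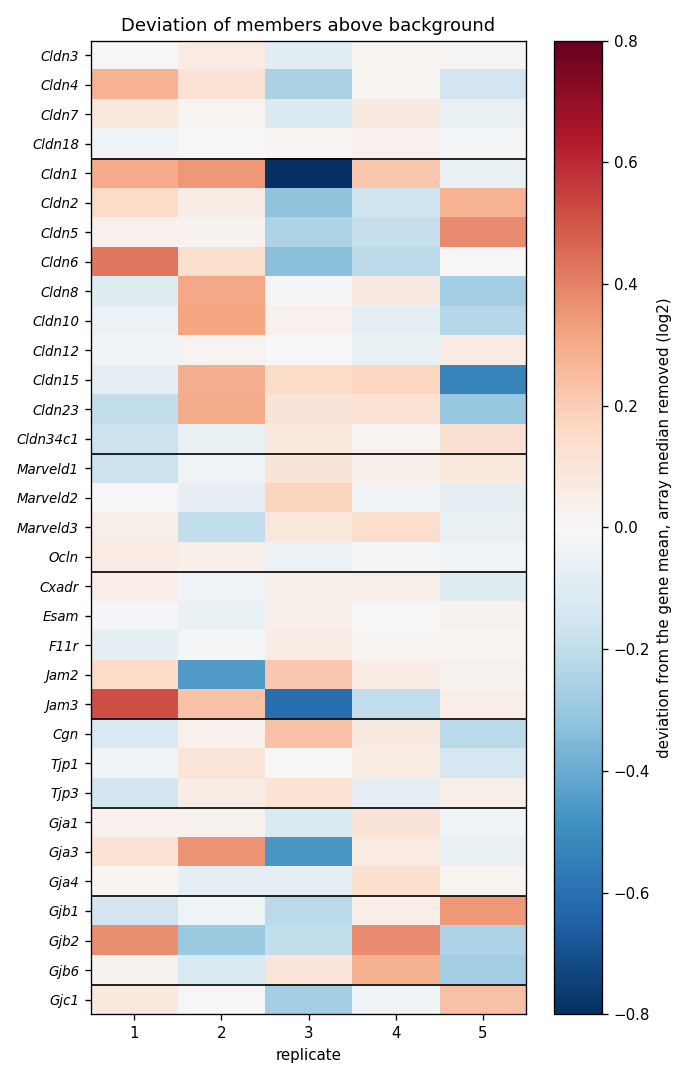
Deviation of each of the 33 junction genes above background (rows, black lines between roles) from its own mean in replicates 1 to 5 (columns), in log2 units after removal of the array's median deviation; red is higher and blue lower. Cldn8, Cldn10, Cldn15 and Cldn23 have their highest value in replicate 2, Gjb2 is red in replicates 1 and 4, and Cldn1, Gja3 and Jam3 are darkest blue in replicate 3.

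Replicate 3 was the lowest array for 13 of the 33 junction genes (39.4%) and for 24.6% of all genes above background. It was also the highest for 9 of the 33 (27.3%) and for 26.6% of all genes. Of the marker lists, cardiac (median deviation −0.89), immune (−0.56), neuroendocrine (−0.54), ciliated (−0.52) and mesenchymal markers (−0.51) were lowest in replicate 3 as well, and the difference between the 3′ and 5′ control probe sets was largest there for both Gapdh (1.67) and Actb (0.845, against 0.542 to 0.599 in the others). The BioB and BioC control probe sets stood apart in replicate 1, with a mean of 12.57 against 11.63 to 11.79 in the others. The part of these markers and controls in the junction values was not tested. Without replicate 3, and without any other single replicate, 33 junction genes were called above background.

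Roles differed in how far their median ranged over the replicates. The median deviation of the 4 lung epithelial claudins in replicates 1 to 5 was 0.04, 0.04, −0.10, 0.02 and −0.04, so it spanned 0.14 log2 units. The range was 0.14 for the 4 MARVEL genes, 0.08 for the 5 immunoglobulin-type genes, 0.25 for the 3 plaque genes and 0.22 for the 3 alpha connexins. The 10 other claudins had −0.04, 0.21, −0.00, −0.02 and −0.03, so replicate 2 stood apart, and without it their range was 0.03 in place of 0.24. The 3 beta connexins had 0.03, −0.12, −0.20, 0.28 and −0.25, with the high value in replicate 4, without which their range was 0.25 in place of 0.53. Gjc1, the only gamma, delta or epsilon connexin above background, had 0.08, 0.00, −0.27, −0.03 and 0.24. Over the same arrays alveolar type 2 markers spanned 0.18, pan-epithelial markers 0.08, alveolar type 1 markers 0.30 and ciliated markers 1.57.

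**Figure D3:**
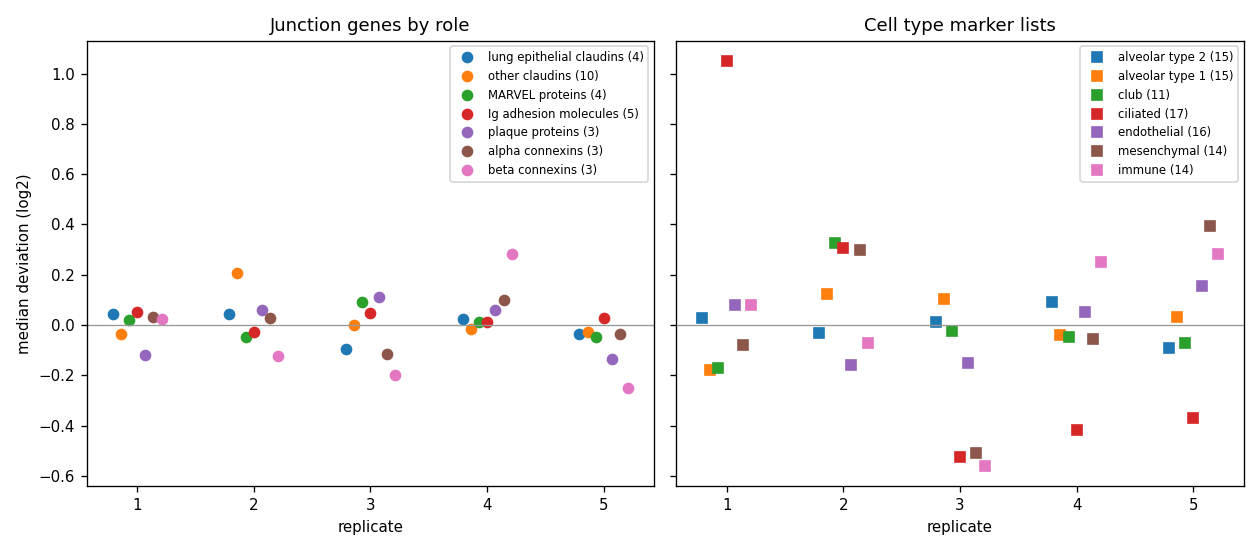
Median deviation in log2 units (y axis) of the junction genes above background by role (left, circles) and of 7 marker lists (right, squares) in replicates 1 to 5, with the number of genes in brackets; Gjc1, the only gene of its role above background, is not drawn. The 7 roles drawn lie between −0.25 and 0.28, and the ciliated list reaches 1.05 in replicate 1.

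Genes that lie next to each other, with no other protein-coding gene of the RefSeq table between them, did not always share a call. Cldn3 and Cldn4 on chromosome 5 were both above background, as were Ocln and Marveld2 on chromosome 13 and Gja3, Gjb2 and Gjb6 on chromosome 14. Cldn6 was called and its neighbour Cldn9 on chromosome 17 was not, with means of 10.06 and 5.50. Cldn1 was called and Cldn16, beside it on chromosome 16, was not (6.28 and 3.76).

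Several genes were measured by more than 1 probe set, and these could disagree. Of 21 such genes, 14 had set means over 1 log2 unit apart and 5 over 5 log2 units apart. All sets averaged above the mean background in 11 of the 21 genes and only 1 set did in 3, Cldn1, Cldn2 and F11r. F11r had 12.35 ± 0.054 on the set used and 5.37 ± 0.17 on the other, which can hybridise to other transcripts by its suffix. Of the 50 sets used, 5 have suffixes of shared or unspecific probes (Cldn3, Cldn10, Gja1, Gjb1 and Marveld1) and 3 the suffix for several transcripts of 1 gene (Cldn1, Cldn12 and Tjp1).

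**Figure D4:**
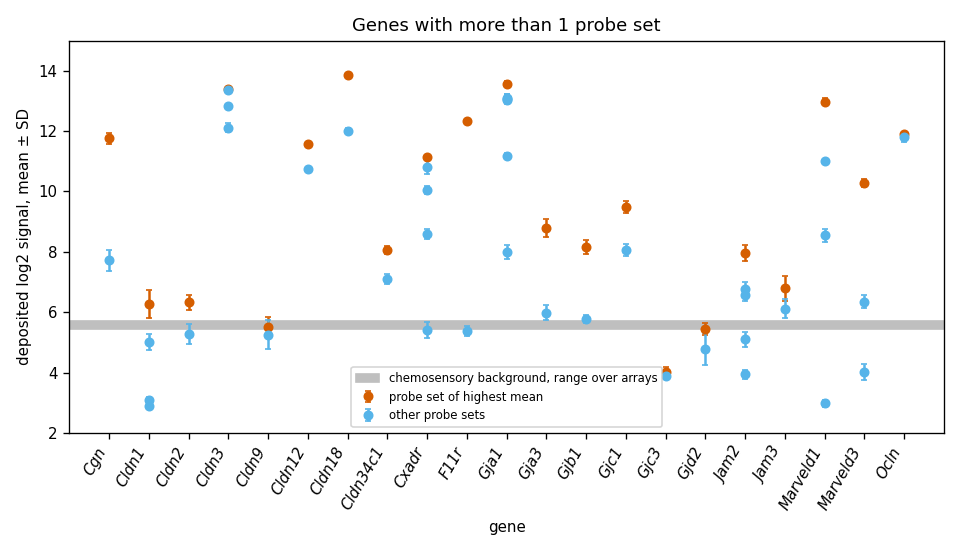
Mean deposited log2 signal ± SD over the 5 arrays (y axis) of every probe set of the 21 junction genes with more than 1, in order of name; orange marks the set used and blue the others, and the grey band is the chemosensory background. The means of the sets of Ocln are 11.90 and 11.80, whereas Marveld1 spans from 2.98 to 12.97 and F11r from 5.37 to 12.35.

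The other genes of cell junctions were called more often than the set itself: 78 of 83 (94.0%), against 74.8% of all genes tested, and 71 (85.5%) above the organ-restricted background, against 60.6%. The lists were chosen by name for their place in junctions or their regulation, also in cells other than epithelium, and the share is a description. Polarity and plaque genes were called in 26 of 26 cases, with Pard3 at 10.24 ± 0.088, Pard3b at 9.10 ± 0.45, Pard6a at 8.54 ± 0.16 and Pard6b at 11.75 ± 0.14. Tricellular and immunoglobulin-type genes were called in 12 of 12, among them Lsr, which recruits tricellulin to tricellular contacts (11.64 ± 0.072), and its relatives Ildr1 (7.65 ± 0.14) and Ildr2 (9.90 ± 0.15), with Igsf5 at 11.34 ± 0.18. Adherens junction genes were called in 9 of 9: the cadherin genes Cdh1, Cdh2 and Cdh3 had 13.42 ± 0.080, 8.58 ± 0.10 and 7.17 ± 0.21, and the endothelial Cdh5 had 10.10 ± 0.13.

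Desmosome genes were called in 8 of 10 cases, with Dsp at 12.41 ± 0.046, Dsg2 at 11.19 ± 0.064 and Dsc2 at 7.23 ± 0.43. The exceptions were Dsc3 (4.87 ± 0.25) and Pkp1 (4.90 ± 0.35), both known from stratified epithelium. The pannexins, which form channels related in shape to connexins, had Panx1 at 9.26 ± 0.13 and Panx2 at 6.34 ± 0.27 above background and Panx3 at 4.52 ± 0.31 not. Of 23 regulators 21 were called, including Elf3 (9.28 ± 0.12) and Ehf (10.80 ± 0.17), and also Snai1, Snai2, Twist1, Zeb1 and Zeb2. Hnf4a (5.46 ± 0.085) and Cdx2 (5.10 ± 0.17), regulators of intestinal epithelium, were not.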

How the data were processed

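Per the labels' protocols, NuGEN Ovation kits were used to amplify the RNA of the 5 samples and to label it with biotin. The authors deposited 1 value per probe set and array on a log scale, used here as log2 because the values ran within the range of a 16-bit scanner on that base; for software, background correction and normalization the sources used here give nothing. Deposited values were used unchanged. Of 45101 probe sets, 34958 had 1 gene symbol in the platform annotation, 9211 were unnamed here and 932, with more than 1 symbol, were set aside. All 50 members were found in the RefSeq gene table under the same symbol.

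Above-background calls used limma 3.58.1 (R 4.3.3): values minus the array's background, an intercept, eBayes with a mean-variance trend. Because the background of an array is common to all genes, errors are correlated between genes. Against the organ-restricted background, Cldn5 and Cldn12 had margins of 4.170 and 4.168 log2 units but SDs of 0.255 and 0.058. Their limma adjusted p were nearly alike, at 1.13e-284 and 2.98e-284. A gene's own spread thus played little part there, and the call followed the margin. The spread test was an F test on 4 and 3.86 degrees of freedom with limma's robust trend. Both tests were run on simulated data first. Deviations are a gene's value minus its mean over the arrays, minus the array's median of that over genes above background. Coordinates are given for promoter windows only, since no build is named for the probes.

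Members and lists were chosen with earlier results of these data known. Values in every replicate were set by rule for the 4 lung epithelial claudins, Ocln, Marveld2, Tjp1, Tjp3, Cgn, F11r, Cxadr, Cldn5, Esam, Gja1 and the 10 members above background with the largest range; those of Cldn8, Cldn10, Gjb6, Snai2 and the second probe sets of Cxadr, Jam3 and Ocln were added after their values were seen. Other lists give their first 4 measured genes and any exceptions to the call. Snai2, Nkx2-1, Grhl2 and Klf5 were added for the motifs, and the calls of Snai1, Twist1, Zeb1 and Zeb2 after they were seen. The alternatives were other backgrounds, a gene's median probe set value, leaving out probe sets whose suffix marks unspecific probes (_x, _s) or several transcripts of 1 gene (_a), other normalizations and variance models, filters on signal, and each replicate left out. No scanner files were used here.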

Additional observations from a re-analysis of the deposited data

Results flagged for a closer look

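In each of 50 junction genes, 83 other junction genes and 27 medians of roles and lists, the most extreme replicate was set against the others by Dixon's ratio, which chance alone exceeds in about 1 in 20 groups. It was exceeded in 3 of 50, 3 of 83 and 1 of 27. Cldn11, a claudin of myelin and Sertoli cells below background in every replicate, read 3.73 in replicate 3 and 5.05 to 5.21 in the others. Jam2 read 7.502 in replicate 2, against 8.001 to 8.171 in the others. Marveld2 read 11.38 in replicate 3, against 11.14 to 11.19. Afdn, the plaque protein afadin, read 13.19 in replicate 3, against 13.07 to 13.10. Cd99l2, an adhesion molecule, read 10.04 in replicate 1, against 10.24 to 10.31. Esrp2, an epithelial splicing regulator, read 11.81 in replicate 1, against 12.06 to 12.12. The median deviation of the 10 other claudins above background was 0.21 in replicate 2, against −0.04 to −0.00.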

How the results depend on the processing

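The count of 33 junction genes above background ran from 29 to 38 over 15 alternatives, and the 78 other junction genes from 70 to 79. No junction gene passed the adjusted spread test, which had little power in the main setting, under any of 12 alternatives. At an unadjusted p under 0.05 the count was 0 to 1 when 1 replicate was left out, 0 without replicate 2 or 4, and 2 with all genes tested. Margins above background turned negative for Cldn1 with the median over its probe sets (−1.33), on leaving out probe sets with the suffixes _x, _s or _a (−0.51), against organ-restricted genes (−1.12) and at the 99th percentile (−0.21). Against organ-restricted genes and at the 99th percentile they were −1.15 and −0.24 for Cldn15 and −1.08 and −0.17 for Cldn2, and against organ-restricted genes −0.61 for Jam3. With the 99th percentile Jam3 lost its call at a margin of 0.30 (limma adjusted p = 0.0601). With the 90th percentile Cldn9, Cldn22, Gjb5, Gjd2 and Gjd4 were called. The range of role medians over replicates became 0.21 for MARVEL genes, 0.14 for immunoglobulin-type genes and 0.33 for alpha connexins with the median over probe sets, and 0.19 and 0.32 for the last 2 with the mean over members. With 1 replicate left out it was 0.0821 to 0.159 for MARVEL genes, 0.13 to 0.22 for alpha connexins, 0.25 to 0.56 for beta connexins, 0.27 to 0.51 for Gjc1 and 0.0293 to 0.281 for the other claudins. The cause of these changes was not tested. Without probe sets of these suffixes, which mark unspecific probes (_x, _s) or several transcripts of 1 gene (_a), Cldn3, Cldn10 and Tjp1 had none left and 47 genes were measured. No paired analysis was possible because there is 1 group. Signals near the background or the top of the scale limit what can be told apart.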
